A study of Schizosaccharomyces pombe with 6 samples.

Results

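The genes described here encode the enzymes of de novo pyrimidine synthesis in the fission yeast *Schizosaccharomyces pombe*: ura1, ura2, ura3, ura4 and ura5. They were chosen by name from the array's annotation, and the group was proposed with the NaHS-against-untreated values of these arrays already known. Their response to NaHS is therefore given as a description, without p-values. All 5 of the 5 named genes had a probe set that the annotation pairs with 1 *S. pombe* gene, among 2917 such probe sets, 4965 tested probe sets and 10928 on the array. Expression was measured in wild-type 972 h- cells at an OD600 of 0.5. The study compared 3 untreated cultures with 3 cultures given 50 µM NaHS, a donor of hydrogen sulfide, for 30 min at 30°C, each on its own Affymetrix yeast array, to learn how hydrogen sulfide changes transcription. All cultures were of this 1 strain, whose label names no ura mutation. Values are log2 signals made with MAS5, and 1 unit is a doubling.

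Cells make pyrimidine nucleotides either from simple precursors or by salvage of uracil and nucleosides. In the de novo route, carbamoyl phosphate is made from glutamine and joined to aspartate, the product is closed to a ring, and dihydroorotate is oxidised to orotate. Orotate is then attached to phosphoribosyl pyrophosphate (PRPP) and decarboxylated to UMP, from which UTP, CTP and the pyrimidine deoxynucleotides are derived. In *S. pombe*, Ura1 is the fused carbamoyl-phosphate synthase and aspartate carbamoyltransferase, Ura2 the dihydroorotase, Ura3 the dihydroorotate dehydrogenase, Ura5 the orotate phosphoribosyltransferase and Ura4 the orotidine monophosphate decarboxylase. Ura3 is the mitochondrial enzyme of the route, and enzymes of its class pass electrons to ubiquinone, as does the sulfide:quinone oxidoreductase Hmt2. The gene ura4 is widely used as a selectable marker in this yeast.

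Replicate 1 stood apart from replicates 2 and 3 in both groups over all genes, and the same was seen for some ura genes below. The medians of the tested probe sets lay between 9.49 and 9.58 on the 6 arrays. Of the tested probe sets, 379 were called by limma at an adjusted p below 0.05, which is 7.63%, and the median log2 difference over all of them was 0.0095. Because the array measures RNA per unit of total RNA, a lower signal cannot be told apart from a larger amount of other transcripts.

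The array also carries probe sets for budding yeast, *Saccharomyces cerevisiae*, whose gene numbers do not all match those of fission yeast. There, URA1 encodes dihydroorotate dehydrogenase, URA4 dihydroorotase and URA3 the decarboxylase. The 6 *S. cerevisiae* probe sets with URA names had log2 signals between 0 and 3.81, with a median of 1.91, and 9 of their 36 values were blank and set to 0. The 5 *S. pombe* ura probe sets lay between 9.36 and 12.36 on every array. The signals of the 2 sets of genes did not overlap on any array, so that the ura genes were measured far above the level of the foreign probe sets of the same names.

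**Figure D1:**
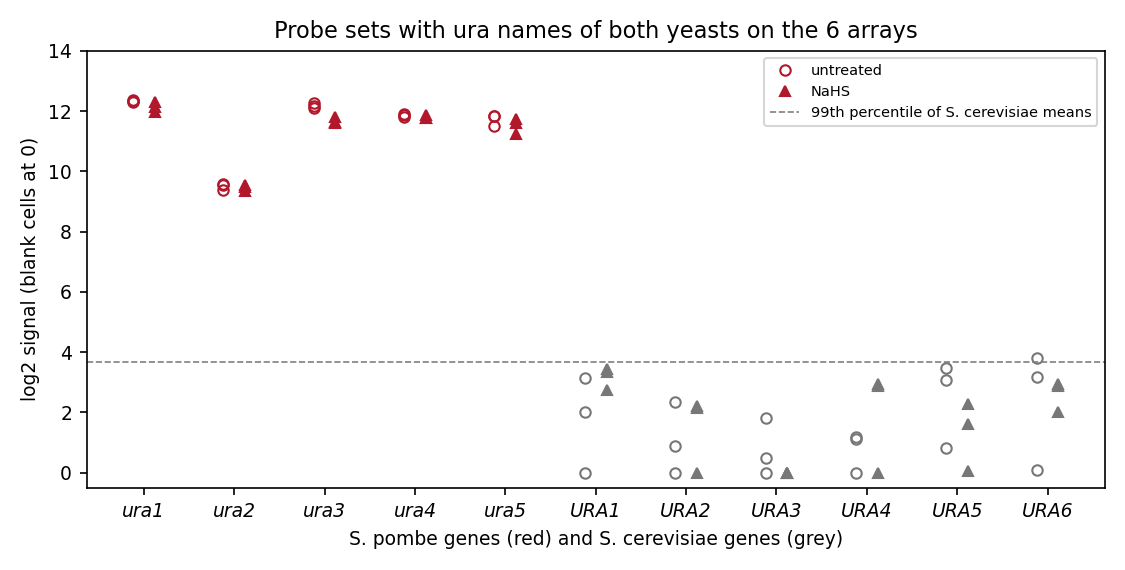
Log2 signal of the *S. pombe* ura probe sets (red) and the *S. cerevisiae* URA probe sets (grey) on each untreated (open circles) and NaHS array (filled triangles). The dashed line is the 99th percentile of the mean signals of all *S. cerevisiae* probe sets (3.67), and every red point is above 9.

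The gene for the mitochondrial step, ura3, showed the largest difference of the 5. Its log2 signal was 12.25, 12.16 and 12.11 on untreated arrays 1, 2 and 3, and 11.80, 11.59 and 11.62 on NaHS arrays 1, 2 and 3. All NaHS arrays were below all untreated arrays, and the gap between the groups, 0.31, was wider than the range within either group (0.14 and 0.21). The mean went from 12.17 ± 0.07 (SD, n = 3) to 11.67 ± 0.11 (SD, n = 3), a difference of -0.50 (standard error 0.09, 95% interval -0.71 to -0.29). This is a signal 1.42-fold lower after NaHS, with an interval from 1.22-fold to 1.64-fold. The difference was -0.45, -0.57 and -0.48 within replicates 1, 2 and 3, so that each pair of arrays carried it at a similar size. It was thus below the 1.5-fold threshold that the study's methods use for single genes, although its interval reaches past it.

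The gene ura1, for the bifunctional enzyme that opens the route, had a steady signal in untreated cells and a scattered one after NaHS. Its log2 signal was 12.316, 12.362 and 12.319 on the untreated arrays and 12.143, 11.972 and 12.301 on the NaHS arrays. The groups did not overlap, but NaHS replicate 3 was only 0.015 below the lowest untreated array. The difference of the means was -0.19 (standard error 0.10, 95% interval -0.44 to 0.048), a 1.14-fold lower signal, and it was -0.17, -0.39 and -0.018 within replicates 1, 2 and 3. Without both arrays of replicate 2 it was -0.095. The SD was 0.026 in untreated and 0.16 in NaHS-treated cultures (n = 3 each).

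The gene ura5, for the phosphoribosyltransferase step, differed by a similar amount, but its arrays varied more with the replicate number. Its log2 signal was 11.51, 11.83 and 11.85 without NaHS and 11.23, 11.62 and 11.73 with it. The groups overlapped because replicate 1 was low in both: untreated replicate 1 was 0.33 below the mean of untreated replicates 2 and 3, and NaHS replicate 1 was 0.45 below the mean of the other NaHS arrays. The difference of the means was -0.21 (standard error 0.16, 95% interval -0.61 to 0.20). Within replicates it was -0.29, -0.21 and -0.12, negative each time. With the replicate number as a block, the difference stayed -0.21 by construction and its standard error became 0.051 (95% interval -0.34 to -0.069). Without NaHS replicate 1 alone the difference was -0.056, and without untreated replicate 1 alone it was -0.32.

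The dihydroorotase gene ura2 and the decarboxylase gene ura4 hardly differed between the groups. For ura2 the log2 signal was 9.39, 9.55 and 9.58 on untreated arrays and 9.36, 9.47 and 9.56 on NaHS arrays, a difference of -0.045 (standard error 0.09, 95% interval -0.26 to 0.18). The groups overlapped almost wholly, with replicate 1 again lowest in both, and without NaHS replicate 1 the difference was 0.0074. For ura4 the signal was 11.81, 11.86 and 11.91 without NaHS and 11.77, 11.77 and 11.88 with it, a difference of -0.052 (standard error 0.07, 95% interval -0.23 to 0.12). These intervals leave room for a signal up to 1.20-fold lower or 1.13-fold higher for ura2 and up to 1.17-fold lower or 1.09-fold higher for ura4.

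**Figure D2:**
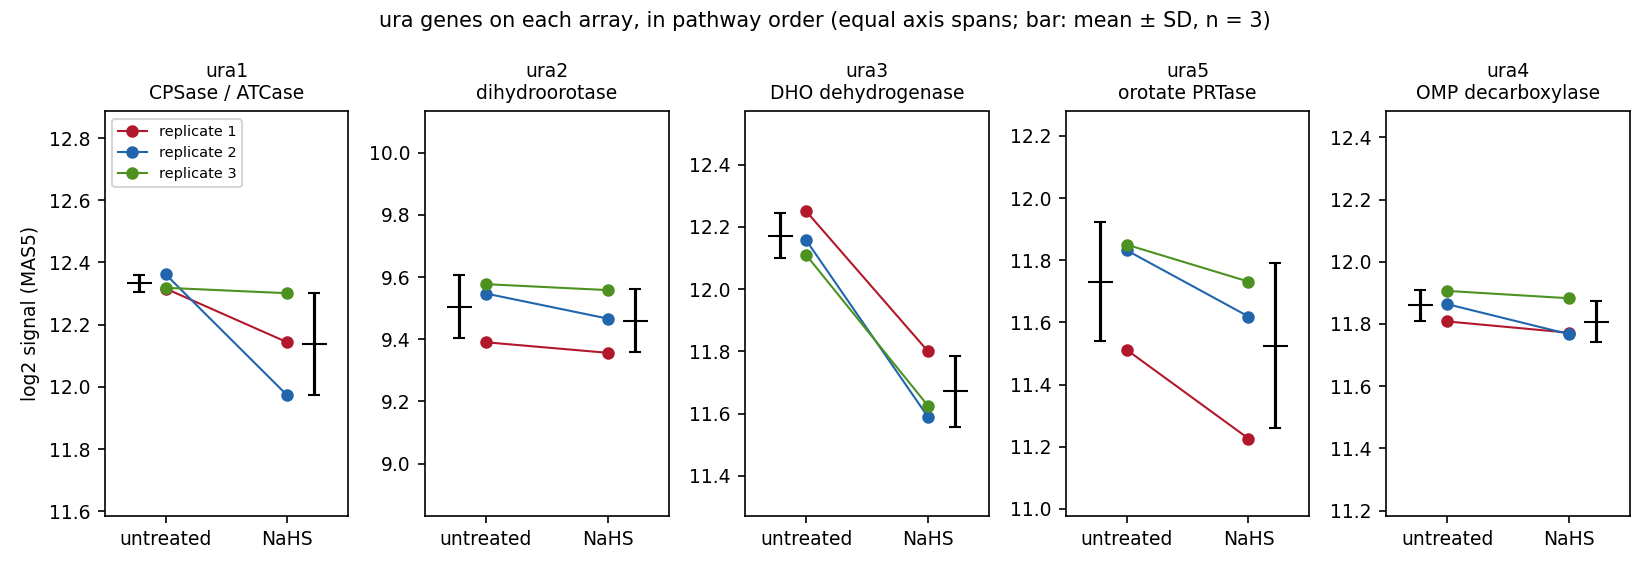
Log2 signal of each ura gene on the untreated and NaHS arrays in the order of the pathway, with lines joining arrays of the same replicate number and bars giving the mean ± SD (n = 3); every panel spans the same range. The 3 lines of ura3 run down side by side by 0.45 to 0.57, those of ura1 spread out, and those of ura2 and ura4 are nearly flat.

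All 5 ura genes had a negative difference, with a median of -0.19, where 47.4% of the tested probe sets had a negative one. In 2 of the 5, ura1 and ura3, all 3 NaHS arrays were below all 3 untreated arrays, a pattern shown by 13.7% of the tested probe sets. In the fit over all probe sets, ura3 was the 1 member of 5 called at an adjusted p below 0.05, where 7.63% of all probe sets were called and 3.67% were called lower. With the replicate block, ura3 and ura5 were called, 2 of 5, and 32.7% of all probe sets were. These counts are given as a description, since the members were proposed with this contrast known. A lower difference than that of ura3 was found in 4.27% of the tested probe sets, against 17.8% for ura5, 19.0% for ura1, 37.1% for ura4 and 38.3% for ura2. The ura3 call was lost without untreated replicate 1, 2 or 3 or without NaHS replicate 2 or 3, while its difference stayed between -0.57 and -0.46 in these fits and in the fit without NaHS replicate 1.

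**Figure D3:**
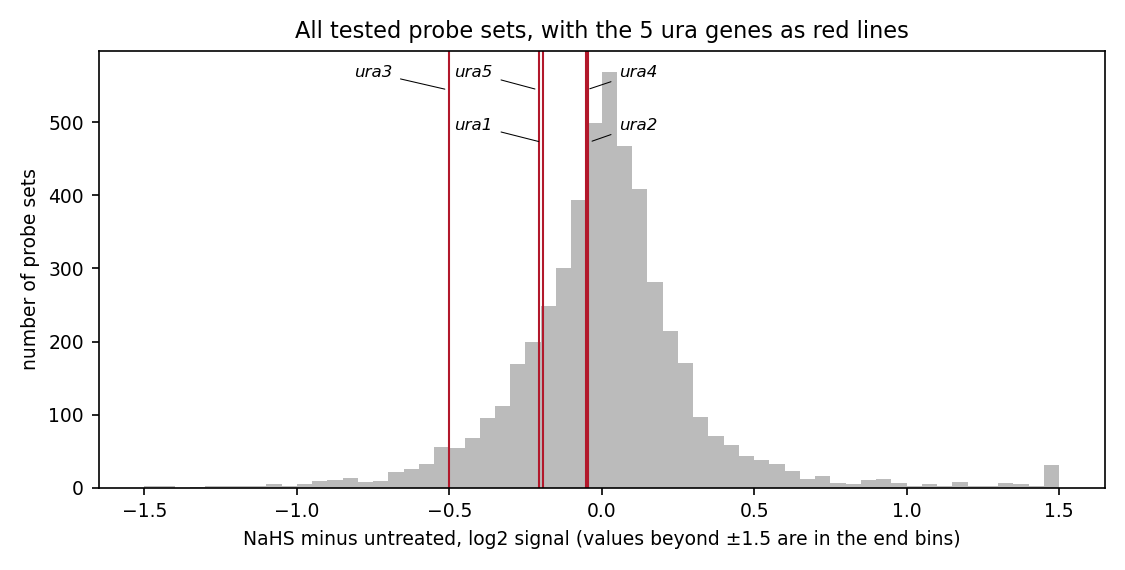
Number of tested probe sets by the difference in log2 signal between NaHS-treated and untreated arrays, with the 5 ura genes as red lines. The line of ura3 at -0.50 lies in the left flank, and those of ura2 and ura4, at -0.045 and -0.052, lie within the central peak.

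The scaling of an array cancels when genes are compared within it. The difference of ura3 minus the mean difference of the other 4 members was -0.32, -0.37 and -0.44 in replicates 1, 2 and 3, a mean of -0.38 ± 0.06 (SD, n = 3). For ura2 and ura4 the same measure was 0.19 ± 0.05 and 0.18 ± 0.04 (SD, n = 3), and for ura1 and ura5 it was 0.0073 ± 0.15 and -0.0079 ± 0.09 (SD, n = 3). Within a replicate this measure ranks the members as their differences do, and the values of the 5 members offset one another. The positive values of ura2 and ura4 thus reflect the lower differences of the other members, since their own differences were -0.045 and -0.052. The gene of the oxidation step had the most negative value in every replicate, as it had the most negative difference.

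Genes around the route were taken from lists drawn up by function and tested in the fit over all probe sets. The changes of urg1, urg2, hmt2 and gut2 were known when the lists were made. Of the listed genes 21 were measured here, of which 3 rose and 2 fell. Among 5 measured genes of pyrimidine uptake and salvage, 3 rose, where 3.97% of all tested probe sets were called higher, and the median difference was 0.47. All 3 are the uracil-regulated urg genes, and since urg1 and urg2 were already known to rise, this count is a description. Another 5 listed genes had no probe set paired with them and are not covered. The study reported a predicted uridine ribohydrolase gene, which is not among the genes measured here, as induced. The signal of urg3 was 9.47, 9.50 and 9.45 on untreated arrays and 9.96, 9.93 and 9.95 on NaHS arrays, a rise of 0.47 on the log2 scale (standard error 0.06, limma adjusted p = 0.0108). The groups were far apart for the spread within them. The call of urg3 was lost without untreated replicate 2 (adjusted p = 0.072), untreated replicate 3 (0.0774) or NaHS replicate 2 (0.0524).

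Of the other urg genes, urg1, annotated as a predicted GTP cyclohydrolase, went from 8.18, 7.76 and 7.75 to 10.34, 10.20 and 10.16, and was 5.06-fold higher (limma adjusted p = 0.000812). The gene urg2, annotated as a predicted uracil phosphoribosyltransferase, which would make UMP directly from uracil, went from 8.30, 8.36 and 8.26 to 9.88, 10.18 and 10.23, and was 3.46-fold higher (limma adjusted p = 0.000971). These NaHS values lie above every untreated value, and the rises of urg1 and urg2 go the opposite way to the difference of ura3. The differences of ura1, ura2, ura4 and ura5 were also negative, but in the main fit their 95% intervals held values of either sign. With the replicate block the interval of ura5 was -0.34 to -0.069, and those of ura1, ura2 and ura4 still held values of either sign. The uracil permease gene fur4 had a difference of -0.13 (95% interval -0.39 to 0.13) and the cytidine deaminase gene cdd1 one of 0.18 (95% interval -0.019 to 0.39), and neither passed the test (limma adjusted p = 0.593 and 0.271).

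Of 6 measured genes for the synthesis of UTP, CTP and deoxynucleotides, 0 were called by limma, where 7.63% of all tested probe sets were, and 0 had an unadjusted p below 0.05, and the median difference was -0.15. The CTP synthase gene cts1 had the smallest adjusted p. Its signal was 12.20, 11.96 and 11.97 on untreated arrays and 11.94, 11.61 and 11.74 on NaHS arrays, so that all NaHS arrays were lower, and the difference was -0.28 (standard error 0.12, limma adjusted p = 0.232; adjusted p = 0.0158 with the replicate block). The genes cdc22 and suc22, for the large and the small subunit of ribonucleotide reductase, had differences of -0.17 and 0.07, spd1, for an inhibitor of that enzyme, one of -0.18, dfr1, for dihydrofolate reductase, one of -0.12, and ndk1, for nucleoside diphosphate kinase, one of 0.15. With the block, 2 of the 6 were called, cts1 and spd1 (limma adjusted p = 0.0389 for spd1), both lower, where 32.7% of all tested probe sets were called with it.

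Of the 4 measured genes for the supply of glutamine, carbamoyl phosphate and PRPP, 0 were called by limma, against 7.63% of all tested probe sets, and 1 (arg4) had an unadjusted p below 0.05. With the replicate block 2 (arg4 and arg5) were called, against 32.7% of all tested probe sets. The median difference was 0.14. The gene arg4 encodes the large subunit of the carbamoyl-phosphate synthase of arginine synthesis. Its signal was 11.89, 11.52 and 11.54 on untreated arrays and 12.19, 11.88 and 11.96 on NaHS arrays. The groups overlapped by the high untreated replicate 1, and the difference was 0.36 (standard error 0.14, limma adjusted p = 0.201; adjusted p = 0.00871 with the replicate block). Its partner arg5, for the small subunit, had a difference of 0.19 (limma adjusted p = 0.647, and 0.0362 with the block). The signs of both were opposite to that of ura1, whose product makes the carbamoyl phosphate of pyrimidine synthesis. The interval of ura1 (-0.44 to 0.048) held values of either sign, and the contrast was not tested. The glutamine synthetase gene gln1 had a difference of 0.10 and the PRPP synthetase gene prs5 one of -0.013.

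Ura3 shares its place in the mitochondrion with other dehydrogenases that reduce ubiquinone, and of 6 measured genes for such enzymes 2 fell, where 3.67% of all probe sets were called lower. Both falls, of hmt2 and gut2, were known when the list was made, so this count is a description. The sulfide:quinone oxidoreductase gene hmt2 was 2.53-fold lower (limma adjusted p = 0.00356), with differences of -1.40, -1.43 and -1.19 within replicates. The glycerol-3-phosphate dehydrogenase gene gut2 was 2.38-fold lower (limma adjusted p = 0.0288), with differences of -0.69, -1.14 and -1.92, and its call was lost without untreated replicate 2 or 3 (adjusted p = 0.12 and 0.119) or without NaHS replicate 2 or 3 (adjusted p = 0.0866 and 0.0641). The genes sdh1, sdh2, sdh3 and sdh4, for the subunits of succinate dehydrogenase, had differences of -0.05, -0.07, -0.029 and -0.10, and none passed the test. The listed NADH dehydrogenase genes had no probe set paired with them and are not covered, although the study reported an NADH dehydrogenase gene as repressed. The difference of ura3, -0.50, lay between the 2 that fell and the sdh genes, and its interval, from -0.71 to -0.29, overlapped that of gut2 (-1.81 to -0.70) only at the edge and did not reach that of hmt2 (-1.64 to -1.04). These differences of response between genes were not tested.

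**Figure D4:**
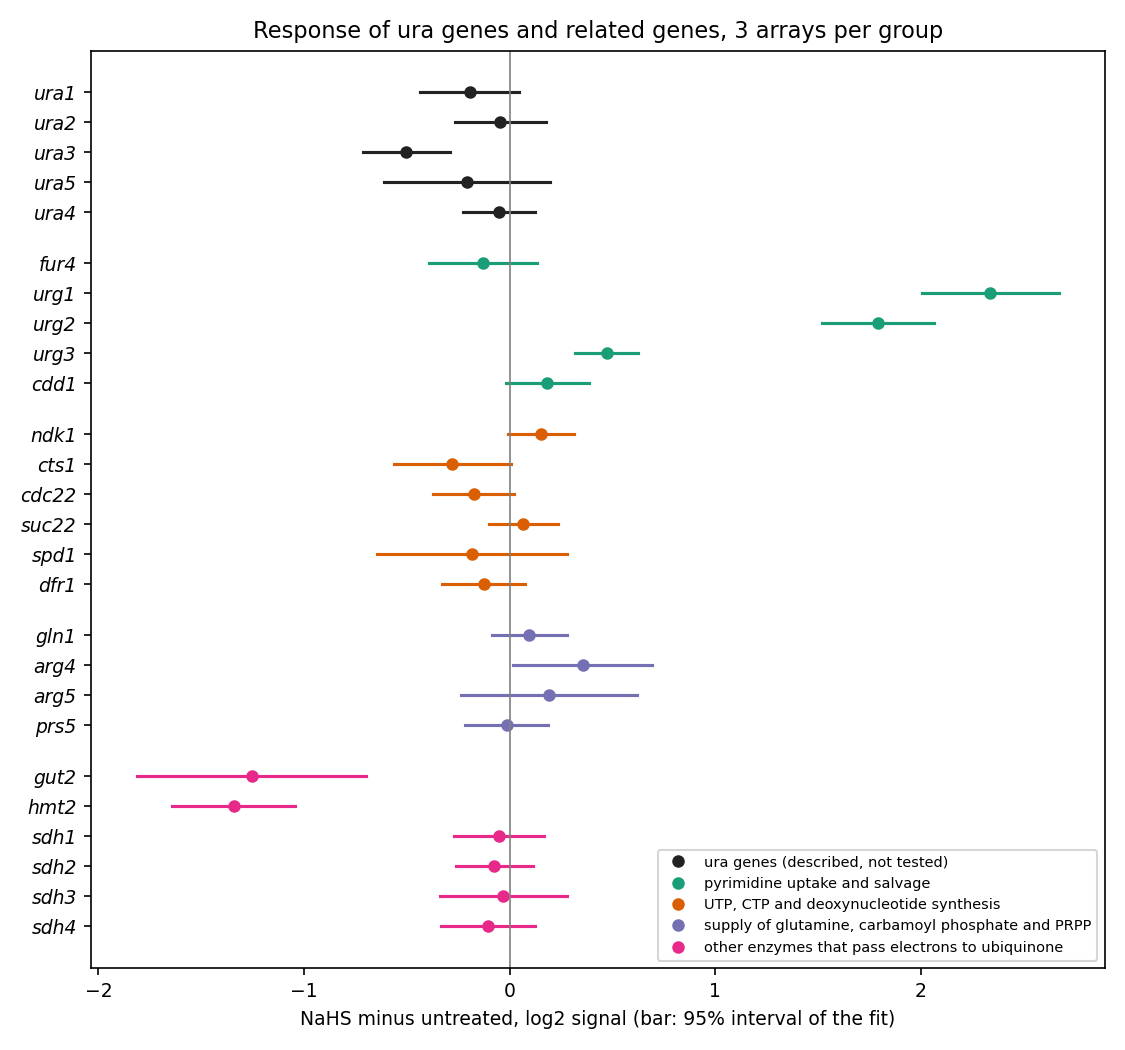
Difference in log2 signal between NaHS-treated and untreated arrays (3 per group) for the ura genes in pathway order and for related genes by list, with 95% intervals of the fit. The points of urg1, urg2, urg3 and arg4 lie to the right of 0 and those of hmt2, gut2 and ura3 to the left, with intervals that do not reach 0. The interval of arg4 starts at 0.019, and arg4 was not called after adjustment.

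The genes with the profile most like those of ura1 and ura3, the members whose groups did not overlap, were looked up among 2913 other probe sets of named genes. The measure was the root mean square difference of log2 signals over the 6 arrays, after each gene's mean was taken away. Nearest to ura3 were nop9 (0.025) and gar2 (0.044), both for nucleolar proteins of ribosome synthesis. The median over all genes was 0.31, and a profile level over the 6 arrays would lie 0.26 from ura3. The nearest 2 of 2913 are close by selection, so the median does not show how unusual their likeness is. The signal of nop9 was 11.12, 10.97 and 10.96 on untreated arrays and 10.69, 10.42 and 10.49 on NaHS arrays, a difference of -0.48. That of gar2 was 11.87, 11.71 and 11.71 and then 11.36, 11.09 and 11.13, a difference of -0.57. Like ura3, both were highest in replicate 1 of each group.

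Nearest to ura1 were sua1 (0.034), for the ATP sulfurylase that activates sulfate, and sir1 (0.047), for a subunit of sulfite reductase. The median over all genes was 0.22, and a profile level over the 6 arrays would lie 0.14 from ura1. Here too the nearest genes are close by selection. The signal of sua1 was 12.59, 12.62 and 12.58 on untreated arrays and 12.43, 12.33 and 12.56 on NaHS arrays, a difference of -0.16. That of sir1 was 12.72, 12.75 and 12.71 and then 12.59, 12.47 and 12.66, a difference of -0.15. In all 3 genes the untreated arrays were nearly level, and NaHS replicate 2 was the lowest array and NaHS replicate 3 the highest of its group. These likenesses are over 6 arrays, are shared with the grouping of the arrays, and are a description.

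**Figure D5:**
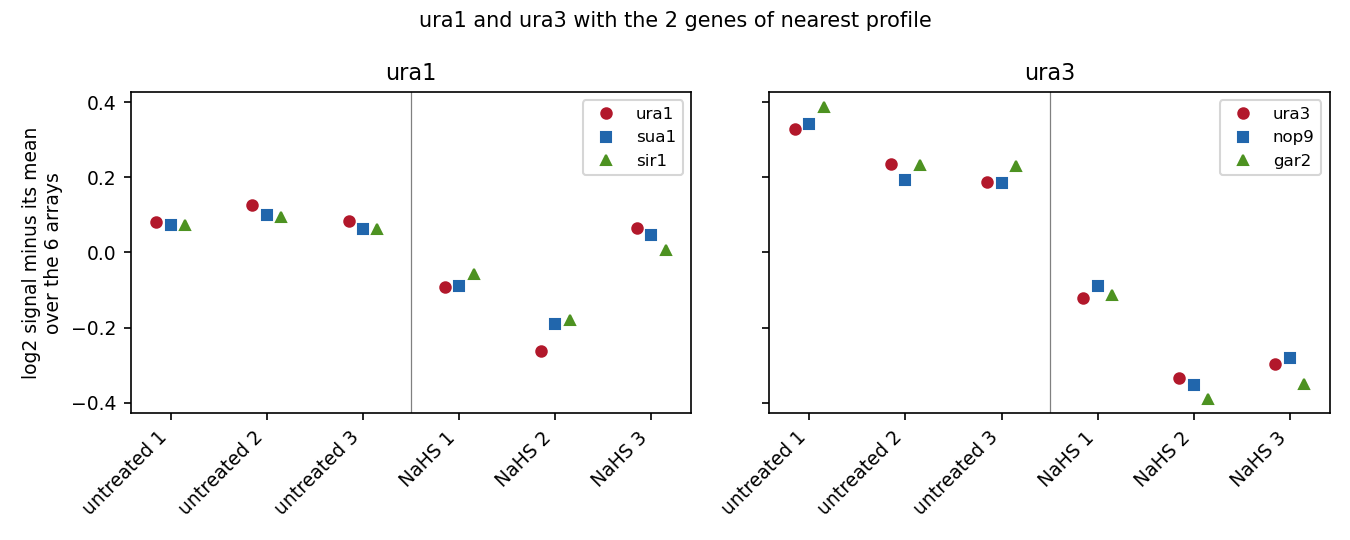
Log2 signal minus its mean over the 6 arrays for ura1 with sua1 and sir1 (left) and for ura3 with nop9 and gar2 (right), 1 point per array. In the left panel NaHS replicate 3 is close to the untreated arrays, and in the right panel all NaHS arrays are below them.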

How the data were processed

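Log2 signals were deposited for 6 arrays, 1 per culture. The array service made them for the authors with MAS5 (version and scaling target: not given in the sources used here). Their log2 scale was read from the values. Blank values (23.59% of all, 0.085% of those of *S. pombe* probe sets) were set to 0. Tested were the 2937 probe sets paired with *S. pombe* genes and 2028 unlisted ones with a mean above 3.67, the 99th percentile of 2601 *S. cerevisiae* probe sets. 213 control and reporter probe sets were left out.

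The 2 groups were fitted in limma 3.58.1 (R 4.3.3) with two-sided tests, 4 residual degrees of freedom and 2.016 from the prior. P-values were adjusted over all 4965 probe sets by Benjamini-Hochberg. SAM, which the study used, was not run. The fit was tested on simulated data. Figures were made with Python 3.11.15 and matplotlib 3.10.9.

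Arrays with the same replicate number in the labels deviated together from their group means (correlations of 0.867, 0.578 and 0.598), and the numbers were taken as pairing the cultures. Different numbers correlated about as highly between replicates 2 and 3 (0.592 and 0.637). The signals thus set replicate 1 apart but do not show which arrays of replicates 2 and 3 belong together. That pairing rests on the labels alone, and the block fits and the differences within replicates depend on it. The main fit has no block.

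The members and lists were chosen with earlier results of these data known. Named are all members, the called genes of each list or its smallest adjusted p, and the 2 nearest profiles of each member whose groups did not overlap. Of the list names, 11 had no probe set paired with them, 9 no gene in the reference, and 2 belonged to genes of another or uncertain function. Gene names are from the platform annotation and RefSeq (ASM294v3).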

Additional observations from a re-analysis of the deposited data

How the results depend on the processing

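The 14 alternatives chosen with the design and the 3 added after seeing the data, which leave out both arrays of a replicate number, kept the negative difference of ura1, ura3, ura4 and ura5, and 16 of 17 kept that of ura2. With the replicate block, 1622 probe sets were called (807 higher and 815 lower), among them 2 ura genes, 2 of the UTP, CTP and deoxynucleotide genes and 2 of the supply genes, and the block changed no other call of a gene named in the text. With only *S. pombe* probe sets tested, 169 of 2937 were called (92 higher and 77 lower). With all probe sets except controls tested, 0 ura genes and 1 of the ubiquinone genes were called. With quantile normalization, the difference of ura2 within replicates 1, 2 and 3 was -0.075, -0.12 and 0.012, that of ura4 in replicate 3 was -0.076, and that of prs5 was 0.0062. The cause of these shifts was not tested.

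When 1 array or both arrays of a replicate number were left out, the called probe sets numbered 0 (without replicate 3) to 710 (without replicate 1), the higher ones 0 to 346 and the lower ones 0 to 364. Called were 0 to 1 of the ura genes, 0 to 3 of the salvage genes, 0 to 1 of the supply genes and 0 to 2 of the ubiquinone genes. The difference lay between -0.10 and 0.0074 for ura2, -0.064 and 0.084 for prs5, -0.098 and 0.014 for sdh1, and -0.15 and 0.068 for sdh3. Without replicate 2 or without replicate 3, 4 arrays remain and no related gene was called, urg1, urg2 and hmt2 included (highest adjusted p = 0.0966, 0.0988 and 0.148). Over the 17 alternatives the adjusted p ranged from 0.00454 to 0.291 for urg3, from 0.0161 to 0.329 for gut2, from 0.0158 to 0.706 for cts1, from 0.0389 to 0.967 for spd1, from 0.00871 to 0.642 for arg4 and from 0.0362 to 0.938 for arg5. The signals of the ura genes lay far above background on every array. With the same 6 arrays, the standard error of ura5 was 0.16 without and 0.051 with the replicate block, and that of ura3 was 0.087 and 0.046.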
